A study of Homo sapiens with 12 samples.

Results

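The miRNAs miR-105 and miR-767 are made from hairpins that lie inside GABRA3, a gene on the X chromosome that encodes a subunit of the GABA-A receptor. Their 4 mature arms, listed as hsa-miR-105-5p, hsa-miR-105-3p, hsa-miR-767-5p and hsa-miR-767-3p (human; the prefix is left off from here), are 4 of the 2588 mature miRNAs in the deposited count table. They were chosen by name, on results of these counts that were already known, so their levels and differences are given as descriptions. Where the fit over all miRNAs also held them, its values and calls are given in the same way and support nothing. The counts are of small RNA from MDA-MB-231, a mesenchymal line of triple-negative breast cancer, and from extracellular vesicles (EVs) that these cells shed. The libraries number 12, in 6 groups of 2: EVs and cells of a RAB27A knockdown line, of a miR-122 knockout line and of a control line.

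The RAB27A knockdown line carried a stable lentiviral short hairpin RNA against RAB27A, a small GTPase that helps vesicle-filled compartments dock at the plasma membrane. The miR-122 knockout line was edited with CRISPR-Cas9 and a pair of guide RNAs at the gene of miR-122, a miRNA best known from liver. The control line carried the empty lentiviral vector. The labels do not say whether the knockout line carried a vector too, or whether any line was a single clone. All lines were grown with 10% fetal bovine serum, and EVs came from 24 h of serum-free culture with 1% albumin. Each genotype was 1 line, and the labels do not say that its 2 replicates were separate cultures, so the spread between them may be technical.

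A miRNA is cut from a hairpin precursor, and either arm of the hairpin (5p or 3p) can be loaded into the silencing complex. There it finds messenger RNAs mainly through its seed, the bases near its 5′ end. GABRA3, miR-105 and miR-767 belong to the cancer-testis group: they are expressed in testis, kept off in most other tissues by promoter DNA methylation, and switched on in some tumours that lose it. In breast cancer, miR-105 has been studied as a miRNA that tumour cells release in vesicles and that lowers the tight junction protein TJP1 (ZO-1), and miR-767 is known to act on TET1 and TET3, enzymes that oxidise methylated DNA.

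The mature sequences are shown first because the seeds, in capitals (bases 2 to 8), decide which other miRNAs could act on the same messages. They are from RefSeq (GRCh38.p14), which held a sequence for 4 of the 4 arms and for 2281 of the 2588 entries of the table.
miR-105-5p: uCAAAUGCucagacuccuguggu
miR-105-3p: aCGGAUGUuugagcaugugcua
miR-767-5p: uGCACCAUgguugucugagcaug
miR-767-3p: uCUGCUCAuaccccaugguuucu
miR-29a-3p: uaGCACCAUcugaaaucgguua
The 4 arms had 4 different seeds. In miR-29a-3p, shown for comparison, the capitals mark the same 7 letters as in the miR-767-5p seed, placed 1 base further from the 5′ end.

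The arms come from 3 hairpin genes, which are printed whole, with the mature arms in capitals, to show which reads could be told apart.
MIR105-1: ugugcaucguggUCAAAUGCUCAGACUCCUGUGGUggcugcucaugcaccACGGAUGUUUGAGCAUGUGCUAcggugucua
MIR105-2: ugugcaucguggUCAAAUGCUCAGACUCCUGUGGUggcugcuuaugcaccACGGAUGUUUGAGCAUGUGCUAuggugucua
MIR767: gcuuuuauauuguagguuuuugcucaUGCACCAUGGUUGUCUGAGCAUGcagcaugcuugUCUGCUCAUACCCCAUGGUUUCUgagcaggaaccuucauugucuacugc
MIR105-1 and MIR105-2 are 81 bases each and differed at 2 positions, C43U and C73U, counted from 1 at the 5′ end of the hairpin, with the MIR105-1 base first. Both positions lie outside the mature arms, so the counts of miR-105-5p cannot be assigned to either gene. MIR767 is 109 bases. With at least 18 bases paired and no gaps, the nearest other mature miRNA differed from miR-105-5p at 6 bases, from miR-105-3p at 5, from miR-767-5p at 4 (miR-1178-5p) and from miR-767-3p at 6. How many mismatches the authors' alignment allowed is not given in the sources used here.

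On GRCh38, the 3 hairpins lie on the minus strand of chromosome X. MIR105-2 spans chrX:152394412-152394492, MIR767 spans chrX:152393421-152393529 and MIR105-1 spans chrX:152392219-152392299. The deposited counts carry no coordinates and were aligned to hg19, so these positions come from the reference alone. All 3 fall in intron 1 of the long protein-coding GABRA3 transcript, which runs from 152364597 to 152451145 (86549 bases), within the GABRA3 gene at chrX:152166234-152451358. They are intronic, in no exon or UTR of that transcript. Transcription reaches MIR105-2 after 56866 bases, then MIR767 after a gap of 882 bases and MIR105-1 after a gap of 1121 bases, and the whole group spans 2274 bases. The shorter protein-coding transcript starts 2722 bases downstream of MIR105-1 and does not contain the hairpins.

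**Figure D1:**
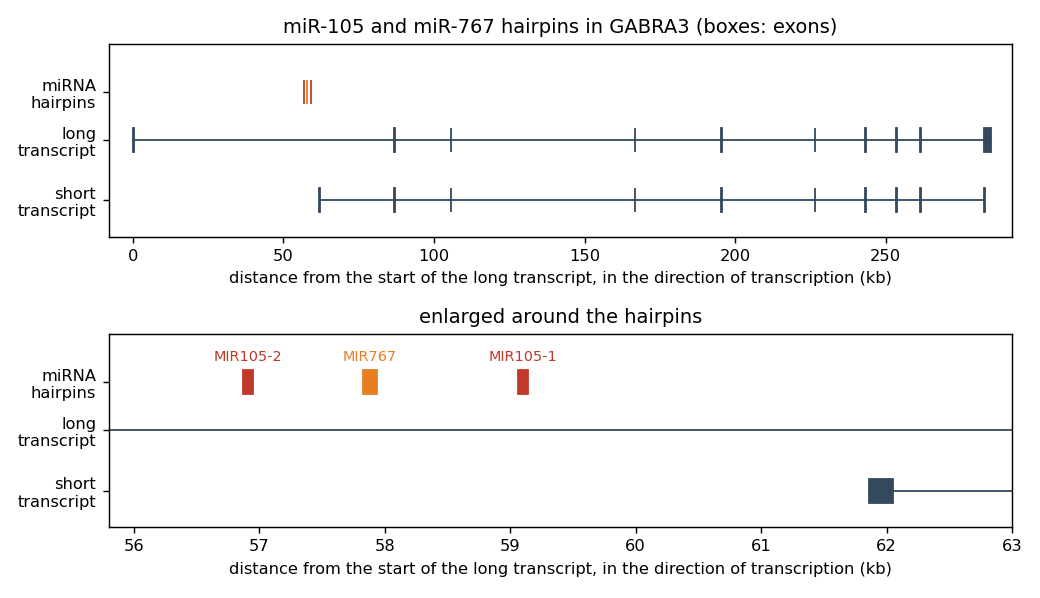
Position of the 3 hairpins in GABRA3. The horizontal axis is the distance from the start of the long GABRA3 transcript in kb, in the direction of transcription; boxes are exons, the upper panel shows the whole gene and the lower panel the stretch around the hairpins. The hairpins sit in intron 1 of the long transcript, ahead of the start of the short one.

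The libraries held 164656 to 11840597 counts. The 2 libraries of knockdown EVs were the shallowest, with 164656 and 170366 counts, and the other 10 had at least 2387336. Levels are in CPM, counts per 1e+06 counts of the library, so that 1 count was worth 5.87 or 6.07 CPM in knockdown EVs and 0.0845 to 0.419 CPM elsewhere. Intervals are 95% exact Poisson intervals, and where no read was seen the limit is that of 3 counts; both cover counting error only, since no molecular identifiers are recorded. The miRNAs that are abundant in MDA-MB-231 (miR-100-5p, miR-21-5p, miR-221-3p and miR-222-3p) summed to 453934 to 548817 CPM in EVs and 545060 to 685523 CPM in cells. The 7 epithelial miRNAs of the miR-200 family with miR-205-5p and miR-375 summed to 183 to 425 CPM in EVs and 132 to 333 CPM in cells. In cells, miR-122-5p was at 12.3 and 12.7 CPM in knockdown cells and had no count in knockout cells, against 0.361 and 0.422 CPM in control cells. In EVs it was at 29.3 to 42.5 CPM in knockdown EVs and 0.947 to 1.07 CPM in knockout EVs, against 251 to 331 CPM in control EVs.

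The 4 arms together had 362 counts, and 353 of them (97.5%) were in the knockdown line, which held 10.8% of all counts of the table. Of the rest, 9 counts were spread over the 8 libraries of the knockout and control lines, where no arm had more than 2 counts in a library. By arm, miR-105-5p had 195 counts, miR-767-5p 161, and each 3p arm 3.

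In knockdown cells miR-105-5p had 100 and 82 counts, or 31.7 CPM (95% interval 25.8 to 38.5) and 26.1 CPM (20.8 to 32.4). Control cells had 1 and 2 counts, or 0.0845 and 0.181 CPM. Both knockdown libraries were above both control libraries, and the intervals of the 2 knockdown libraries overlapped. How many of all miRNAs were separated in this way was not counted, here or below, so nothing is read from it. The group means were 28.9 ± 3.92 CPM in knockdown cells and 0.133 ± 0.0681 CPM in control cells (SD, n = 2 each). The ratio of the pooled levels was 221, with an exact binomial 95% interval of 74.3 to 1080 that is set mostly by the 3 control counts.

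The pattern of miR-767-5p was like that of its neighbour. It had 63 and 88 counts in knockdown cells, or 19.9 CPM (15.3 to 25.5) and 28.0 CPM (22.5 to 34.5). Control cells had 1 count in each library, or 0.0845 and 0.0904 CPM. Here too the groups did not overlap, which is given as a description only. The means were 24.0 ± 5.71 CPM in knockdown cells and 0.0874 ± 0.00418 CPM in control cells (SD, n = 2 each), and the pooled ratio was 275 (74.7 to 2287). Had control cells held the level of knockdown cells, their depth would have given 662 counts of miR-105-5p and 549 of miR-767-5p; 3 and 2 were seen.

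By pooled level, miR-105-5p was 217th of the 1127 miRNAs detected in knockdown cells and 955th of the 1358 detected in control cells. Among the 613 miRNAs that passed the filter on low counts in cells, 8 had a higher ratio of knockdown to control than miR-105-5p and 7 a higher ratio than miR-767-5p, 6 of them with no count in control cells. The median ratio over the 613 was 0.910. Of the 4 arms, 2 passed that filter (the 5p arms), and they passed through the knockdown libraries alone, so they had to differ. In edgeR's quasi-likelihood test with Benjamini-Hochberg adjustment, 24.3% of the tested miRNAs were called higher in knockdown cells at an adjusted p under 0.05, and both 5p arms were among them; as the members were chosen on this contrast, nothing is read from that count. The summed epithelial miRNAs were 325 to 333 CPM in knockdown cells, against 160 to 165 CPM in control cells, with miR-205-5p at 0 in knockdown cells. The 2 endothelial miRNAs (miR-126-3p and miR-126-5p) summed to 196 to 211 CPM in knockdown cells and 110 to 113 CPM in control cells. In cells, miR-122-5p, given above, was also higher in the knockdown libraries. Other lists went the other way. Blood cell miRNAs summed to 110 to 112 CPM in knockdown cells and 269 to 285 CPM in control cells. Stromal miRNAs summed to 10.8 to 13.7 CPM in knockdown cells and 13.9 to 17.1 CPM in control cells. The part of these miRNAs in the result was not tested. In bulk RNA, fewer cells that express a miRNA and less of it per cell cannot be told apart.

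**Figure D2:**
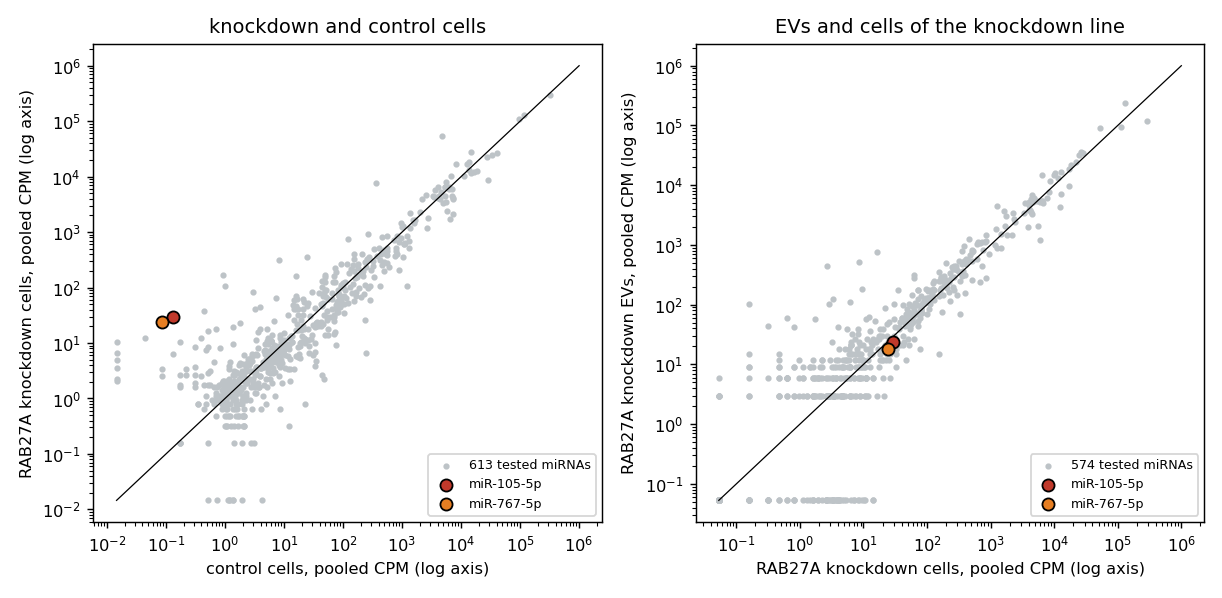
Pooled level of each tested miRNA (log axes, CPM; the line marks equal levels). Left, knockdown cells against control cells (613 miRNAs); right, EVs against cells of the knockdown line (574 miRNAs). Points with no count in a group are drawn at the lowest position on that axis. miR-105-5p and miR-767-5p stand far above the line on the left, at ratios of 221 and 275, and just below it on the right, at 0.827 and 0.747.

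In knockout cells miR-105-5p had 0 and 1 counts and miR-767-5p had none, which limits miR-767-5p to 0.150 CPM over the group. The mean of miR-105-5p was 0.0508 ± 0.0719 CPM in knockout cells and 0.133 ± 0.0681 CPM in control cells (SD, n = 2 each). A count of 1 against 3, and of 0 against 2, gives no ratio, and no difference between knockout and control cells was detectable at this depth. At the level of knockdown cells, the knockout libraries would have held 578 counts of miR-105-5p and 479 of miR-767-5p. Over all tested miRNAs, 62.3% were called in either direction between knockout and control cells; the 5p arms entered that fit only through the knockdown libraries, with 1 against 3 and 0 against 2 counts here, and are not read against that share.

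The EVs of the knockdown line also held both 5p arms, in few counts. miR-105-5p had 6 and 2 counts, or 36.4 CPM (13.4 to 79.3) and 11.7 CPM (1.42 to 42.4). Control EVs had 0 and 1 counts, a limit of 1.26 CPM and a level of 0.385 CPM. The means were 24.1 ± 17.5 CPM in knockdown EVs and 0.193 ± 0.272 CPM in control EVs (SD, n = 2 each). Both knockdown libraries were above both control libraries in level, again as a description only. Their counting intervals were not all apart. That of knockdown EVs replicate 2 began at 1.42 CPM, and that of control EVs replicate 2 ended at 2.15 CPM. The pooled ratio was 119 (16.0 to 5281), which rests on 8 counts against 1.

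For miR-767-5p, knockdown EVs had 3 counts in each library, or 18.2 CPM (3.76 to 53.2) and 17.6 CPM (3.63 to 51.5). Control EVs had 1 count in each, or 0.419 and 0.385 CPM. The means were 17.9 ± 0.432 CPM in knockdown EVs and 0.402 ± 0.0238 CPM in control EVs, a spread narrower than the counting error of so few reads. The pooled ratio was 44.6 (7.98 to 452.1), from 6 counts against 2. Knockout EVs had no count of any arm in 2 libraries, which limits each arm to 0.433 CPM over the group. At the level of knockdown cells they would have held 200 counts (199.95) of miR-105-5p and 166 of miR-767-5p. No direction between knockout and control EVs was detectable at this depth.

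None of the 4 arms passed the filter on low counts in the EV fit, so none was tested there. Without that filter both 5p arms entered the fit of 1388 miRNAs and both were called higher in knockdown EVs, beside 5.55% of all miRNAs called higher, from which nothing is read for members chosen on these counts. Between knockout and control EVs that fit called 14.8% of all miRNAs in either direction; the 5p arms had 0 against 1 and 0 against 2 counts there and are not read against that share. The EV groups differed in other ways. The 8 blood cell miRNAs summed to 170 to 252 CPM in knockdown EVs and 147 to 217 CPM in knockout EVs, against 9867 to 11503 CPM in control EVs; miR-144-5p, miR-150-5p and miR-223-3p had no count in knockdown EVs. The 5 stromal miRNAs summed to 112 to 115 CPM in knockdown EVs and 3183 to 3315 CPM in control EVs, and the 2 endothelial ones to 231 to 276 CPM in knockdown EVs and 2648 to 2966 CPM in control EVs. In knockout EVs the stromal list summed to 27.8 to 40.5 CPM and the endothelial one to 129 to 136 CPM. The epithelial list went the other way. It summed to 417 to 425 CPM in knockdown EVs and 327 to 328 CPM in knockout EVs, against 183 to 205 CPM in control EVs. Of that list, miR-205-5p and miR-375 had no count in knockdown EVs. The part of these lists in the EV result was not tested.

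**Figure D3:**
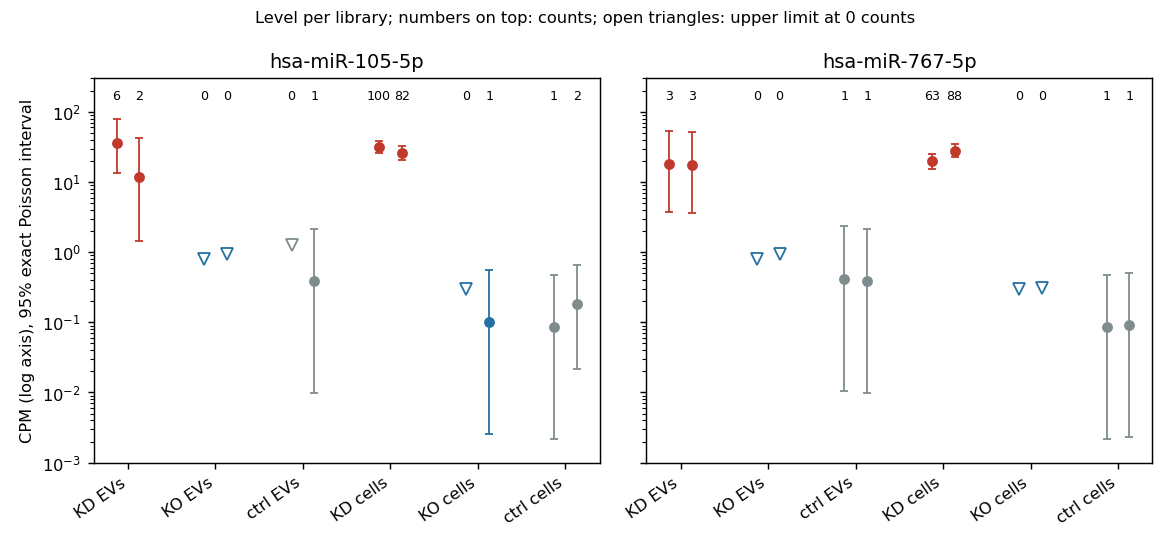
Level of miR-105-5p (left) and miR-767-5p (right) in each library, in CPM on a log axis, for EVs and then cells of the RAB27A knockdown (KD), miR-122 knockout (KO) and control (ctrl) lines. Points are libraries with 95% exact Poisson intervals, open triangles are the limit of 3 counts in libraries with no count, and the numbers on top are counts. The 4 knockdown libraries lie at 11.7 to 36.4 CPM for miR-105-5p and 17.6 to 28.0 CPM for miR-767-5p, above every other library.

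Between EVs and the cells that made them, no difference in the 5p arms of the knockdown line was detectable at this depth. miR-105-5p was at 24.1 ± 17.5 CPM in knockdown EVs and 28.9 ± 3.92 CPM in knockdown cells, a pooled ratio of EVs over cells of 0.827 (0.352 to 1.66). miR-767-5p was at 17.9 ± 0.432 CPM in knockdown EVs and 24.0 ± 5.71 CPM in knockdown cells, a pooled ratio of 0.747 (0.270 to 1.66). Both intervals include 1. At the cell level, the depth of the knockdown EVs would have given 9.68 counts of miR-105-5p and 8.03 of miR-767-5p; 8 and 6 were seen. Of the 574 miRNAs tested, those with no count in the knockdown line have no ratio and are left out here. The median ratio over the others was 1.21, with 5 of them at no count in knockdown cells. Among these others, 370 had a higher ratio than miR-105-5p and 168 a lower one. For miR-767-5p, 388 had a higher ratio and 150 a lower one.

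In the edgeR fit of all 12 libraries, 2 of the 4 arms passed the filter, again the 5p arms through the knockdown libraries. The log2 fold change of EVs over cells in the knockdown line was -0.75 (SE 0.55) for miR-105-5p and -0.89 (SE 0.59) for miR-767-5p on the TMM scale, given as a description. The median log2 fold change of all tested miRNAs in this comparison was -0.11 with TMM factors and 0.19 with total counts, so the scale decides where the middle lies. Over all tested miRNAs, 19.3% were called between EVs and cells in the knockdown line, 59.1% in the knockout line and 53.7% in the control line, and the 5p arms are not read against these shares. With at most 3 counts on either side in the knockout and control lines, no ratio is given there.

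Ordered by mean level, miR-105-5p ran from knockdown cells (28.9 CPM) and knockdown EVs (24.1 CPM) through control EVs (0.193 CPM), control cells (0.133 CPM) and knockout cells (0.0508 CPM) to knockout EVs, with no count. The pooled intervals of knockdown cells (24.8 to 33.4 CPM) and knockdown EVs (10.3 to 47.1 CPM) overlapped. Control EVs (0.00508 to 1.12 CPM), control cells (0.0270 to 0.383 CPM) and knockout cells (0.00127 to 0.279 CPM) also overlapped with each other, and none reached the interval of a knockdown group. The order of miR-767-5p was the same down to control cells, with no count in the knockout line.

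Nearly all reads came from the 5p arm of each hairpin. In knockdown cells miR-105-3p had 1 and 2 counts and miR-767-3p had 2 and 1, or 0.477 ± 0.226 and 0.476 ± 0.222 CPM (SD, n = 2 each). No other library held a read of either 3p arm. The 5p arm made up 98.4% of the miR-105 reads of knockdown cells (182 of 185, exact binomial 95% interval 95.3 to 99.7%) and 98.1% of the miR-767 reads (151 of 154, 94.4 to 99.6%). The replicates gave 99.0% and 97.6% for miR-105 and 96.9% and 98.9% for miR-767. The 3p arms were not detectable elsewhere, with limits of 8.95 CPM in knockdown EVs, 0.433 CPM in knockout EVs, 0.602 CPM in control EVs, 0.150 CPM in knockout cells and 0.131 CPM in control cells. In knockdown EVs that limit lies far above the 3p level of the cells, which would have given 0.160 counts there.

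The 2 hairpin families contributed similar numbers of reads. Among the reads of both 5p arms, miR-767-5p made up 38.7% (31.1 to 46.6%) in replicate 1 of the knockdown cells and 51.8% (43.99 to 59.5%) in replicate 2, and 45.3% (39.9 to 50.9%) over both. It was 42.9% in knockdown EVs (6 of 14 reads, 17.7 to 71.1%), within the interval of the cells, and in control cells 2 of 5 reads were of miR-767-5p. Across the 12 libraries, log2(CPM + 1) of the 2 arms had a Pearson r of 0.985, which describes a split between 4 libraries of the knockdown line and 8 others.

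The seeds of the arms were shared with few other miRNAs. Of 2370 mature miRNAs in RefSeq, 1 had the seed of miR-105-5p, miR-7853-5p, and it had no count in any library. No other miRNA had the seed of miR-767-5p, miR-105-3p or miR-767-3p. The letters of the miR-767-5p seed recurred 1 base further on in 3 miRNAs, miR-29a-3p, miR-29b-3p and miR-29c-3p, a family known to act on TET and collagen messages. These 3 together were at 12985.5 ± 590 CPM in knockdown cells and 19061 ± 598 CPM in control cells, where miR-767-5p was at 24.0 CPM in knockdown cells and 0.0874 CPM in control cells. In EVs they were at 16937 ± 195 CPM in knockdown EVs and 21498 ± 1194 CPM in control EVs. The abundant miRNA with these letters was thus miR-29a-3p in every group, at 12703 ± 584 CPM in knockdown cells and 18679 ± 589 CPM in control cells.

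Of the 7 arms of miR-29a, b and c, all tested, 6 were called lower and 0 higher in knockdown than in control cells, beside 29.5% of all miRNAs called lower. Their median log2 fold change was -0.54, against -0.11 over all tested miRNAs, and miR-29a-3p itself fell by 0.54 on the log2 scale (SE 0.11, adjusted p = 0.000222, edgeR). With RLE factors, total counts or DESeq2, 4 of the 7 were called lower, as without control cells replicate 1 or knockdown cells replicate 2, and 3 without control cells replicate 2 or knockdown cells replicate 1. The call of miR-29a-3p was lost without control cells replicate 2 (adjusted p = 0.0769, edgeR) and without knockdown cells replicate 1 (adjusted p = 0.125). In knockdown EVs 4 of 7 were called lower than in control EVs, where 27.5% of all miRNAs were, and 2 without knockdown EVs replicate 1. In knockout cells the same 7 were split, with 4 higher and 1 lower (2 higher and 3 lower with total counts). With RLE factors or DESeq2 the split was 4 higher and 0 lower, and it also moved when most of the libraries were left out in turn. Over all 613 miRNAs tested in the main fit of cells, 170 were called higher and 212 lower in knockout cells. In knockout EVs 1 was higher and 2 lower, beside 92 higher and 109 lower of all 488 tested. That 1 higher call stood only in the main fit and with a replicate block, and was lost in every other setting.

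GABRE, which encodes another subunit of the same receptor, is also on the minus strand of chromosome X, 191553 bases from GABRA3, at chrX:151953124-151974680 on GRCh38. It hosts the hairpins of miR-224-5p and miR-452-5p, miRNAs known from several solid tumours. These neighbours did not follow miR-105 and miR-767. Their 4 arms summed to 307 ± 3.32 CPM in knockdown cells and 241 ± 10.8 CPM in knockout cells, against 1153 ± 22.9 CPM in control cells (SD, n = 2 each). All 4 were called lower in knockdown cells and 0 higher, beside 29.5% of all miRNAs called lower, with a median log2 fold change of -1.64 against -0.11 over all tested miRNAs, and the 4 calls were the same with RLE factors, total counts and DESeq2. In knockout cells 3 of 4 were called lower, beside 34.6% of all miRNAs called lower (2 of 4 with DESeq2 and without control cells replicate 1).

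The most abundant of them, miR-224-5p, was at 209 ± 11.9 CPM in knockdown cells and 84.1 ± 5.02 CPM in knockout cells, against 903 ± 30.1 CPM in control cells. It fell in knockdown cells by 2.10 on the log2 scale (SE 0.13, adjusted p = 2.65e-11, edgeR), and in knockout cells it fell by 3.08 (SE 0.13, adjusted p = 6.99e-14). The 5p arm of miR-452 fell by 1.38 in knockdown cells (SE 0.15, adjusted p = 1.07e-07), and in knockout cells its log2 fold change was 0.13 (adjusted p = 0.430). So the control line, where miR-105 and miR-767 were almost without reads, had the most of the GABRE miRNAs.

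In EVs the GABRE arms summed to 322 ± 34.5 CPM in knockdown EVs and 592 ± 57.8 CPM in knockout EVs, against 976 ± 66.7 CPM in control EVs. Of the 4 arms, 2 were called lower in knockdown EVs and 0 higher, beside 27.5% of all miRNAs called lower, and 2 were called lower in knockout EVs, beside 22.3% of all miRNAs there; with total counts 4 were called lower in knockout EVs, and without knockdown EVs replicate 1 the count in knockdown EVs was 1. In knockdown EVs miR-224-5p fell by 2.14 on the log2 scale (SE 0.21, adjusted p = 2.86e-06, edgeR). In knockout EVs its log2 fold change was -0.24 (SE 0.14, adjusted p = 0.192), and the 2 arms called lower there were both of miR-452.

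A second set of testis miRNAs lies further along the X chromosome, in the Xq27.3 cluster that holds miR-506 to miR-514 and miR-888 to miR-892. The list had 30 entries, 17 of them with no read anywhere and 0 with 50 counts or more over the table. The list summed to 43 counts in knockdown cells (6.83 ± 0.702 CPM), 8 in knockout cells (0.400 ± 0.00940 CPM) and 30 in control cells (1.31 ± 0.185 CPM). In EVs it summed to 4 counts in knockdown EVs (11.8 ± 8.16 CPM), 8 in knockout EVs (1.14 ± 0.272 CPM) and 6 in control EVs (1.19 ± 0.497 CPM). In cells the knockdown libraries were above the others, at levels well below those of miR-105-5p and miR-767-5p.

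In cells 1 entry of that list passed the filter, miR-514a-3p, which is named because it was the only such entry and was singled out after its values were seen. It was called higher in knockdown than in control cells, with a log2 fold change of 2.66 (SE 0.70, adjusted p = 0.00325, edgeR). Like the 5p arms, it passed the filter through the knockdown libraries alone, so nothing is read from that call. In knockout against control cells miR-514a-3p had a log2 fold change of -1.52 (SE 1.11, adjusted p = 0.240). It had 5 and 11 counts in knockdown cells, 1 and 1 in knockout cells and 5 and 4 in control cells, and the call was lost without knockdown cells replicate 2 (log2 fold change 2.01, adjusted p = 0.285).

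**Figure D4:**
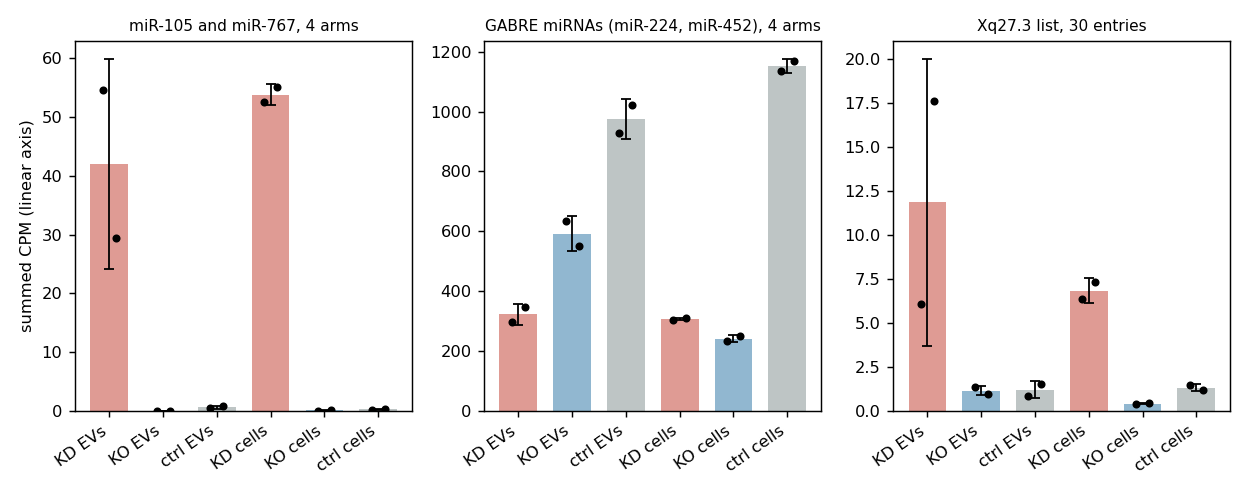
Summed level in CPM (linear axes, a separate range per panel) of the 4 arms of miR-105 and miR-767, the 4 GABRE arms and the 30 entries of the Xq27.3 list. Bars are means of 2 libraries, error bars the SD (cut at 0) and points the libraries, for knockdown (KD), knockout (KO) and control (ctrl) EVs and then cells. The GABRE arms were lowest in knockdown EVs at 322 CPM and in knockout cells at 241 CPM, against 976 and 1153 CPM in the control groups.

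The miRNAs whose levels across the 12 libraries were most like those of the 5p arms were taken by Pearson r of log2(CPM + 1), among the 639 other miRNAs that reached 50 counts over the table. For miR-105-5p these were miR-708-5p (r = 0.992), miR-217 (0.967), miR-125b-2-3p (0.967), miR-218-5p (0.965) and miR-330-3p (0.954). For miR-767-5p they were miR-708-5p (0.985), miR-125b-2-3p (0.980), miR-217 (0.979), miR-218-5p (0.978) and miR-218-1-3p (0.968), so that 4 were shared. These r values have no p, since the libraries share their lines and the miRNAs were picked for likeness.

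The closest, miR-708-5p, had 117 and 118 counts in knockdown cells, 0 and 0 in knockout cells and 3 and 7 in control cells. In EVs it had 5 and 2 counts in knockdown EVs, 0 and 0 in knockout EVs and 1 and 3 in control EVs. Like miR-767-5p, it was high in the knockdown line and had no read in the knockout line. Its mean level was 37.3 ± 0.382 CPM in knockdown cells and 0.443 ± 0.268 CPM in control cells.

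The other 5 covered a wide range of levels. miR-125b-2-3p was at 105.2 ± 5.16 CPM in knockdown cells and 1.01 ± 0.110 CPM in control cells, with no count in the knockout line. miR-218-5p was at 744 ± 35.2 CPM in knockdown cells and 123 ± 5.89 CPM in control cells, and miR-330-3p at 128 ± 5.48 CPM in knockdown cells and 50.02 ± 2.36 CPM in control cells. These were present in every line and differed by less. miR-217 was at 19.8 ± 2.10 CPM in knockdown cells and 1.36 ± 0.127 CPM in control cells, and miR-218-1-3p at 45.2 ± 2.66 CPM in knockdown cells and 3.92 ± 1.36 CPM in control cells.

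**Figure D5:**
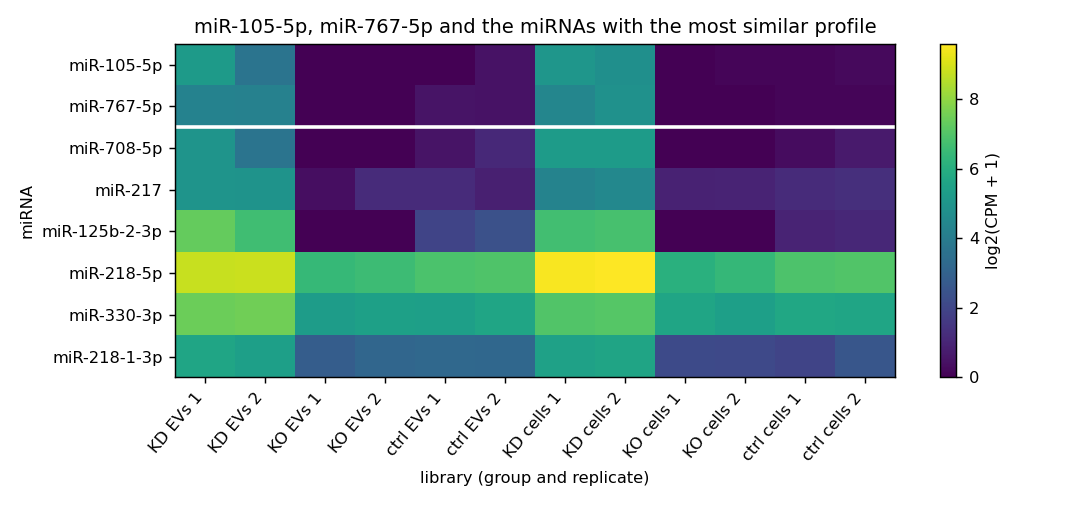
Level of miR-105-5p and miR-767-5p (above the white line) and of the 6 miRNAs with the most similar profiles in each of the 12 libraries, as log2(CPM + 1) by colour. Columns are libraries, EVs and then cells, of the knockdown (KD), knockout (KO) and control (ctrl) lines with their replicate number. All 8 rows are brighter in the 4 knockdown libraries; miR-218-5p and miR-330-3p are also bright elsewhere.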

How the data were processed

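For 12 small RNA libraries the authors deposited raw counts of reads for each mature miRNA. Per the submitters' processing notes, cutadapt, Bowtie and genome build hg19 were used; versions, the miRNA annotation and how reads with several matches were handled are not stated there. Per the labels' protocols, libraries depended on a 5′ monophosphate, so RNAs without one are not seen.

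From these counts, CPM, exact Poisson and binomial intervals (95%), and ratios of pooled counts were computed. edgeR 4.0.16 (limma 3.58.1, R 4.3.3) ran its quasi-likelihood test with TMM factors, filterByExpr and Benjamini-Hochberg adjustment at 0.05 over all tested miRNAs, on 6 cell libraries (613 miRNAs), 6 EV libraries (488) or all 12 (574). The SE is the size of the log2 fold change over the square root of F. The procedure was tested on simulated data, with changes placed only in miRNAs that had more counts than any of the arms. That test does not cover the arms or other miRNAs with so few counts. Alternatives were DESeq2 1.42.0, RLE factors, total counts, no filter, a replicate term and leaving out each library. The arms and lists were chosen with earlier results of these data known. The rule named the 4 arms, the 5 miRNAs most like each 5p arm, and list members with at least 50 counts. No columns were left out.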

Additional observations from a re-analysis of the deposited data

How the results depend on the processing

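Both 5p arms were called higher in knockdown cells under every setting tried, where the main fit called 24.3% of all tested miRNAs higher. They were chosen on this contrast, so their calls in cells say nothing of stability. In the EV fit none of the arms was tested. Without the low-count filter both were called higher in knockdown EVs, beside 5.55% of all miRNAs, and nothing is read from that either. In the other comparisons the arms had too few reads on either side, or were held only through the knockdown libraries, so that their calls say nothing of stability. Of 95 alternative counts of calls, 92 stayed within 1.5 times the reported count. Between knockdown and control cells 330 miRNAs were called, and 196 to 385 with a library left out (196 without knockdown cells replicate 1, 218 without replicate 2). Between knockout and control EVs 201 were called, and 127 to 205 with a library left out (127 without control EVs replicate 2). With a replicate block the counts were 319 and 377 in knockdown and knockout cells and 211 and 181 in their EVs. For EVs against cells they were 114, 340 and 301 in the knockdown, knockout and control lines. The differences between replicates 1 and 2 had r of -0.07 to 0.07 over 15 pairs of groups. Counting noise in miRNAs with few reads also brings r down, so whether equal numbers pair the libraries cannot be read from this. With total counts in place of TMM, 32.4% of calls in knockout cells were higher against 44.5%, 19.2% against 45.8% in knockout EVs, and 75.6% against 37.8% for EVs over cells of the knockdown line. TMM factors in the pooled ratios, added after seeing the data, gave 41.2 for miR-767-5p in knockdown over control EVs, and 0.595 and 0.537 for miR-105-5p and miR-767-5p in EVs over cells of the knockdown line. Leaving out a library moved the ratio of miR-105-5p over 160 to 342 in cells (342 without control cells replicate 2). In EVs this ratio moved over 58.5 to 182 (58.5 and 182 without knockdown EVs replicates 1 and 2, 62.0 without control EVs replicate 1). Without control EVs replicate 2, no count of miR-105-5p was left in control EVs. That case has no ratio and is not in the range. For EVs over cells the ratio of miR-105-5p moved over 0.406 to 1.26 (without knockdown EVs replicates 1 and 2), so that its direction turned. In the same order, the ratio of miR-767-5p moved over 228 to 321, 42.8 to 46.5 and 0.639 to 0.898. Of the 5 miRNAs most like miR-105-5p, 2 stayed with log2(CPM + 10), and of those most like miR-767-5p, 3 stayed with log2(CPM + 0.1); 3 of 5 stayed for each among miRNAs with at least 500 counts. The cause of these moves was not tested. Depth limits the EV values: 14 reads of the arms were seen in knockdown EVs.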
